A study of Mus musculus with 11 samples.

Results

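The genes described are Casp1, Casp4, Casp8, Casp12, Gsdmd, Mlkl, Ripk1 and Ripk3, which encode caspases, the pore protein gasdermin D and the kinases and pore protein of necroptosis. They are 8 of the 34745 genes in the deposited expression table, were taken by name rather than by their values, and each matched a single row. Bulk RNA sequencing was done on microglia, the brain's resident macrophages, cultured from the cerebrum of C57BL/6 mice of 6 to 8 weeks. All cultures, untreated ones included, were kept for 10 to 14 days in medium containing the growth factors M-CSF (10 ng/ml) and TGF-beta1 (5 ng/ml). The 4 groups were Control with no stimulus (n = 3), Pam3CSK4 (n = 2), a lipopeptide ligand of TLR2, at 100 ng/ml for 24 h, IFN-gamma (n = 3) at 20 ng/ml for 24 h, and a combined group (n = 3) given Pam3CSK4 and then IFN-gamma at those doses and times. In 1 treatment field, combined replicates 2 and 3 carry another last digit in the agonist's name, and their titles were followed. No label says whether replicates came from separate animals or cultures, so p-values measure the spread between these libraries, which may be technical.

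These genes act in connected routes of lytic and apoptotic cell death. Inflammasomes activate caspase-1, which matures interleukin-1 family cytokines and cleaves gasdermin D, whose free end forms membrane pores in pyroptosis. Caspase-4, known in mice as caspase-11, does the same to gasdermin D after sensing cytosolic lipopolysaccharide. In necroptosis the kinases RIPK1 and RIPK3 assemble and RIPK3 phosphorylates MLKL, which then ruptures the plasma membrane. Caspase-8 starts apoptosis below death receptors and restrains necroptosis by cleaving RIPK1 and RIPK3. Interferons and Toll-like receptor ligands are known inducers of several of these genes in macrophages.

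Libraries held 15033702 to 20321017 counts. Microglial markers were present throughout, with 12 of 12 at 1 FPKM (fragments per kilobase of gene, scaled to library size) or more in Control and IFN-gamma libraries. In the Pam3CSK4 and combined libraries it was 11 of 12, as Siglech was under 1 FPKM. Markers of astrocytes (at most 2 of 8), neurons (2 of 7), oligodendrocytes (3 of 8), endothelium (3 of 7) and other immune cells (2 of 11) rarely reached that level. Replicate 3 of Control, replicate 1 of IFN-gamma and replicate 3 of the combined group stood apart, in that they also held transcripts of mural cells and fibroblasts. Of 12 such markers, 9, 9 and 7 reached 1 FPKM in these libraries, against 1 or 2 in every other library. The summed level of that list ranged from 31.7 to 2330 FPKM in Control, 54.2 to 63.5 after Pam3CSK4, 17.4 to 134 after IFN-gamma and 18.3 to 70.7 in the combined group, with the highest value of each affected group in the marked library. Much of the sum elsewhere came from Cspg4, at 9.83 to 61.2 FPKM in all libraries. Myl9 was at 0 in 5 of the 8 unmarked libraries and Rgs5 in all 8. Rgs5 did not separate the libraries, as it stood at 0.012, 0.0778 and 0 FPKM in the 3 marked ones. Lum and Pdgfra also stayed under 1 FPKM in every library. Some markers of other cell types were likewise highest in marked libraries. Cdh5, from the endothelial list, stood at 13.7, 1.96 and 1.63 FPKM in the 3, against at most 0.25 elsewhere. Tubb3, from the neuron list, stood at 6.88, 10.7 and 3.48 FPKM, against at most 0.398 elsewhere. Gja1, from the astrocyte list, reached 30.8 FPKM in the marked Control library and at most 3 FPKM in any other. In bulk RNA a change in the share of a cell type and a change of RNA per cell cannot be told apart. Members and partner lists are therefore given with all libraries. They are given again without the 3 marked libraries where that changes a call, a count or a size.

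Casp1 and Casp4 rose with each stimulus and with both, Gsdmd rose where IFN-gamma was given, and Casp8 was not called in any comparison with all libraries. In Pam3CSK4 against Control, 2 of the 8 genes were called, Casp1 and Casp4, both higher (edgeR adjusted p under 0.05, where 41.4% of the 10938 tested genes were called and 20.0% were called higher). After IFN-gamma alone, 4 were called, Casp1, Casp4, Gsdmd and Mlkl, all higher, beside 41.6% of all tested genes called and 20.0% called higher. In the combined group against Control, 5 were called, the same 4 and Ripk1, all higher (47.6% of all genes called, 23.4% higher). No member was called lower against Control in these comparisons, which share the same Control libraries. The median log2 change over the 8 genes was 0.24, 0.87 and 0.76 in the 3 comparisons, and over all tested genes it was -0.04, -0.07 and -0.04.

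Without the 3 mural-marked libraries the called genes differed. That fit kept Control replicates 1 and 2, both Pam3CSK4 libraries, IFN-gamma replicates 2 and 3 and combined replicates 1 and 2. Its adjusted p-values, here and below, thus rest on few libraries per group. In Pam3CSK4 against Control they were then Casp1, Casp4 and Mlkl, higher, and Casp8, lower (4 of 8, with 53.8% of all genes called). After IFN-gamma 6 of 8 were called, all higher, with Ripk3 and Casp12 added (47.3% of all genes called). In the combined group against Control 4 remained, since Ripk1 no longer passed (53.4% of all genes called).

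**Figure D1:**
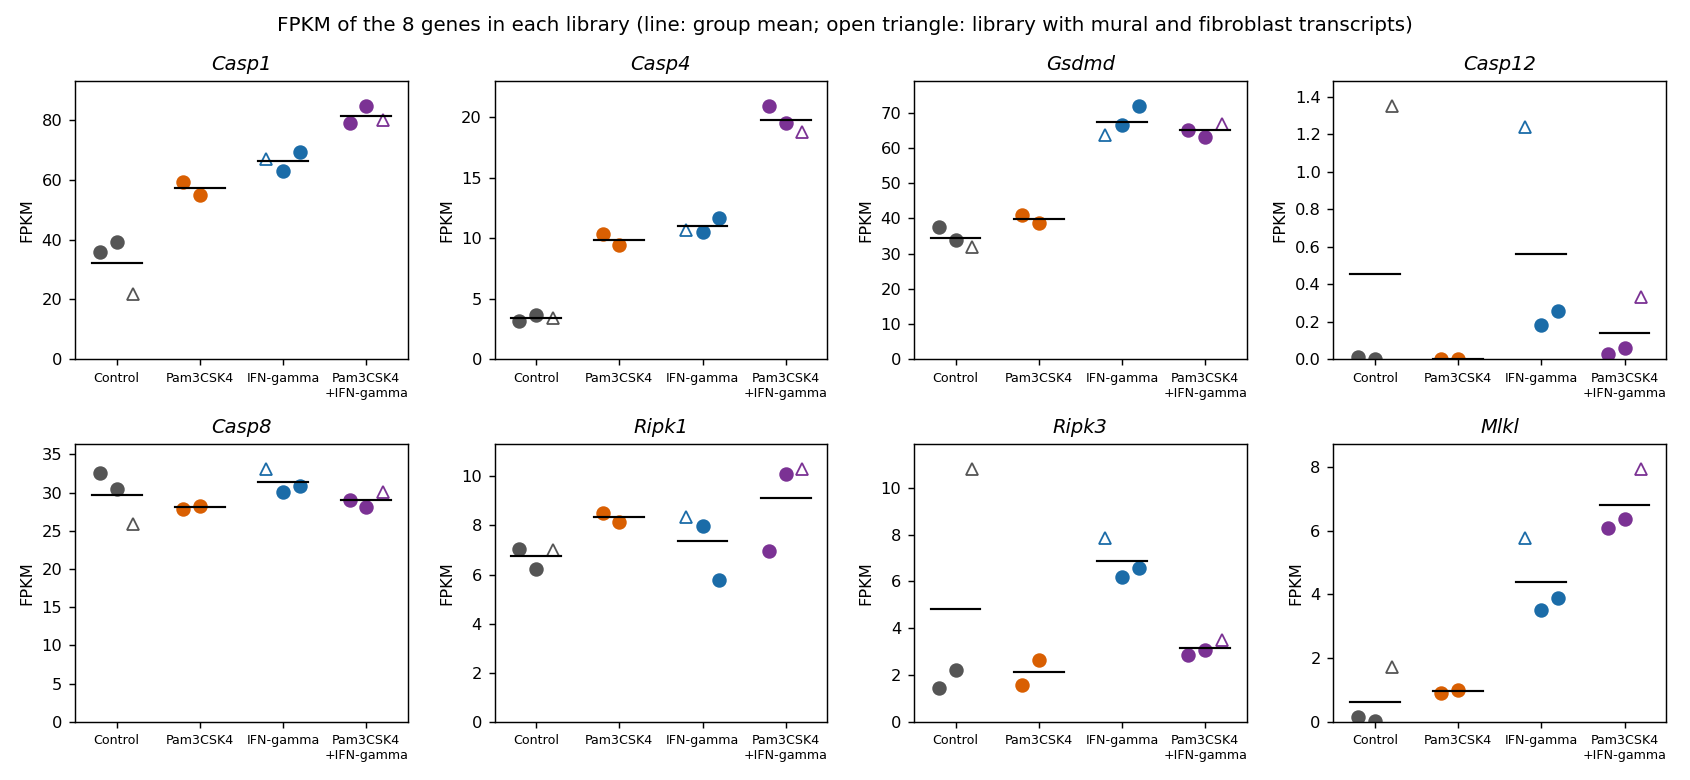
FPKM (y axis, linear, from 0) of each of the 8 genes in every library, by group; lines are group means and open triangles mark the 3 libraries with mural and fibroblast transcripts. Casp4 rose from 3.13 to 3.63 FPKM in Control to 18.8 to 20.9 FPKM in the combined group, while the highest Control values of Ripk3, Mlkl and Casp12 are those of Control replicate 3.

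Casp1 (ENSMUSG00000025888, mm10 chromosome 9, 5298517 to 5307265) encodes the inflammasome protease. It stood at 35.9, 39.1 and 21.7 FPKM in Control replicates 1 to 3 and at 59.2 and 55.0 FPKM after Pam3CSK4. Values were 67.0, 62.9 and 69.3 FPKM after IFN-gamma and 79.0, 84.6 and 80.0 FPKM in the combined group. The groups did not overlap and stood in the order Control, Pam3CSK4, IFN-gamma, combined, with the mural-marked Control replicate 3 lowest of all. Mean levels were 32.2 ± 9.25 (SD, n = 3), 57.1 ± 2.97 (SD, n = 2), 66.4 ± 3.21 (SD, n = 3) and 81.2 ± 3.02 FPKM (SD, n = 3). Log2 changes against Control were 0.79 ± 0.24 (SE; edgeR adjusted p = 0.0265), 1.12 ± 0.22 (adjusted p = 0.00312) and 1.40 ± 0.22 (adjusted p = 0.000673). The Pam3CSK4 call was lost on removing Pam3CSK4 replicate 1 or 2 (edgeR adjusted p = 0.104 and 0.0874). It was also lost when only the groups compared entered the fit (0.119). Without the 3 mural-marked libraries the changes were 0.54, 0.88 and 1.17, all called.

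The steps between stimulated groups were smaller for Casp1. The combined group exceeded IFN-gamma by 0.28 ± 0.22 and Pam3CSK4 by 0.62 ± 0.25 on the log2 scale, and neither passed (edgeR adjusted p = 0.353 and 0.177). Both passed without Control replicate 3, the most scattered Control library for this gene, at 0.28 and 0.62 (adjusted p = 0.0125 and 0.00108). That library enters these comparisons only through the shared estimate of the spread.

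Casp4 (ENSMUSG00000033538, chromosome 9, 5308828 to 5336783) changed the most regularly of the 8 genes. Control libraries held 3.13, 3.63 and 3.42 FPKM, Pam3CSK4 libraries 10.3 and 9.44, IFN-gamma libraries 10.7, 10.5 and 11.7, and combined libraries 20.9, 19.5 and 18.8. No group overlapped another, and Control replicate 3 lay between the other Control libraries. Means were 3.39 ± 0.25 (SD, n = 3), 9.86 ± 0.60 (SD, n = 2), 11.0 ± 0.63 (SD, n = 3) and 19.7 ± 1.06 FPKM (SD, n = 3). The fitted rise was 2.87-fold after Pam3CSK4 (log2 1.52 ± 0.11, edgeR adjusted p = 8.77e-06), 3.46-fold after IFN-gamma (1.79 ± 0.10, adjusted p = 1.58e-06) and 6.19-fold with both (2.63 ± 0.10, adjusted p = 1.36e-07). With all libraries it was the 1 member that also passed in both comparisons within stimulated cells. The combined group was 1.79-fold above IFN-gamma (log2 0.84 ± 0.10, edgeR adjusted p = 0.000173) and 2.15-fold above Pam3CSK4 (1.11 ± 0.11, adjusted p = 0.000263).

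Casp1, Casp4 and Casp12 lie in this order on the plus strand of chromosome 9, within 74516 bases that hold no other gene of the table. Gaps of 1562 and 8646 bases separate them. The stretches upstream of their RefSeq starts (GRCm38.p6, the assembly of mm10) are shown because these neighbours are related caspase genes of which Casp1 and Casp4 were called with each stimulus and Casp12 was near the limit of detection. Each runs 5′ to 3′ on the plus strand from base -130 before the start to the last base ahead of the deposited gene model, at chr9:5298387-5298516, chr9:5308719-5308827 and chr9:5345346-5345429. Capitals mark matches to the motifs searched.
Casp1: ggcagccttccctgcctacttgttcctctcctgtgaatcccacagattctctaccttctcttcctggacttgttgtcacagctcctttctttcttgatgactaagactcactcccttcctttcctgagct
Casp4: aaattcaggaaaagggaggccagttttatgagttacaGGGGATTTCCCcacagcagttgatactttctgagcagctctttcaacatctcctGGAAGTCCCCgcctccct
Casp12: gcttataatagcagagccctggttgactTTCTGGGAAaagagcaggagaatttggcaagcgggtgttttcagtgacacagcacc

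The motifs were the interferon-gamma activated site TTCNNNGAA, the core of the interferon-stimulated response element (GAAA, any 2 bases, GAAA), and the NF-kappaB consensus, each on both strands in windows of 250 bases before to 50 after a RefSeq start. Windows were found for 7 of the 8 genes, all but Gsdmd. Casp4 had NF-kappaB matches in 2 places, at bases -93 to -83, where 3 overlapping matches fall, and at -39 to -30. These are counted from its RefSeq start at 5308849, which the printed stretch also uses. From its other RefSeq start, at 5308860, the same places lie at -104 to -94 and -50 to -41. Of 32851 windows of all genes, 8.46% held an NF-kappaB match. Casp12 had activated-site matches at -102 to -94 and -36 to -28, a motif found in 8.30% of windows. The match at -36 to -28 lies inside the deposited gene model, past the printed stretch, which ends at -47. Ripk1 had 2 windows: the one at its deposited start held no match, and the one at a later start held activated-site matches at -108 to -100 and -11 to -3 and a response-element match at -5 to 5, a motif found in 3.44% of windows. The windows of Casp1, Casp8, Mlkl and Ripk3 held none of the 3 motifs. The only Casp8 window lies at a start (58802502) inside the deposited gene model, which begins at 58795374. The deposited Casp8 start was thus not searched. A match describes letters in these windows and was not tested for binding or effect.

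Gsdmd (ENSMUSG00000022575, chromosome 15, 75862339 to 75867404), which encodes the pore protein cut by caspase-1 and caspase-4, responded to IFN-gamma. It stood at 37.7, 34.0 and 32.0 FPKM in Control, 41.0 and 38.7 after Pam3CSK4, 63.7, 66.6 and 71.9 after IFN-gamma and 65.2, 63.1 and 67.0 in the combined group. The 6 libraries given IFN-gamma all lay above the 5 others, and the IFN-gamma and combined groups overlapped. The rise over Control was 2.09-fold with IFN-gamma (log2 1.06 ± 0.11, edgeR adjusted p = 8.85e-05) and 2.00-fold with both (1.00 ± 0.11, adjusted p = 7.70e-05). After Pam3CSK4 alone the change was 0.18 ± 0.12 (adjusted p = 0.258), although both libraries exceeded all Control libraries. The combined group differed from IFN-gamma alone by -0.06 ± 0.11 (adjusted p = 0.711) and from Pam3CSK4 alone by 0.82 ± 0.13 (adjusted p = 0.00367).

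Casp12 (ENSMUSG00000025887, chromosome 9, 5345430 to 5373032), a caspase-1 relative associated with the endoplasmic reticulum, was near the limit of detection. It entered the tests only because Control replicate 3 and IFN-gamma replicate 1, both mural-marked, exceeded 1 FPKM (1.35 and 1.24). Control replicates 1 and 2 held 1 and 0 counts and both Pam3CSK4 libraries 0, against 143 counts in Control replicate 3. IFN-gamma replicates 1 to 3 held 122, 20 and 23 counts, and combined replicates 3, 7 and 38, the last again the marked library. With all libraries no comparison passed (edgeR adjusted p = 0.0979 to 0.828), although DESeq2 called Pam3CSK4 lower than Control (adjusted p = 0.0105). In the unmarked libraries alone, IFN-gamma gave 43 counts and Control 1, which scaled to library size is 39.3 times as many (95% counting interval 6.68 to 1590), with an edgeR adjusted p of 0.0036. The corresponding ratio for combined replicates 1 and 2 was 7.62 (95% counting interval 1.08 to 331; edgeR adjusted p = 0.0999). Those combined libraries were lower than the IFN-gamma ones by a fitted log2 of -2.36 ± 0.59 (adjusted p = 0.0176). Over all libraries the combined group was not called against Pam3CSK4 (adjusted p = 0.353). The intervals cover counting error only.

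**Figure D2:**
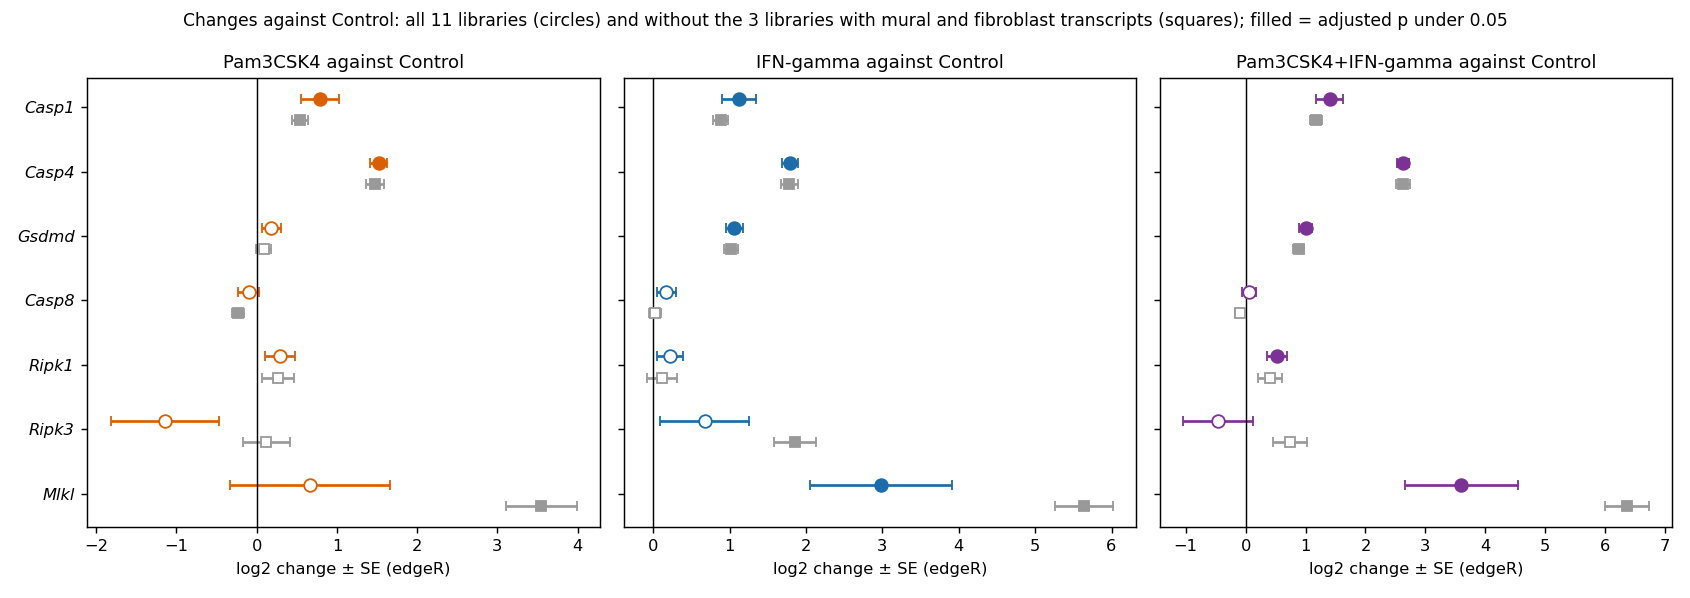
Log2 change against Control (x axis) with its SE for 7 of the 8 genes, with a separate x scale per panel (Casp12, near 0 counts in most libraries, is left out), in Pam3CSK4, IFN-gamma and the combined group; circles use all 11 libraries, squares leave out the 3 mural-marked ones, and filled symbols have an edgeR adjusted p under 0.05. Casp4 stayed at 1.52 and 1.48 after Pam3CSK4 under both, while Mlkl moved from 0.66 to 3.54.

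Casp8 and Ripk1, the shared upstream components of apoptosis and necroptosis, had the flattest profiles. Casp8 (ENSMUSG00000026029, chromosome 1, 58795374 to 58847503) stood at 32.6, 30.5 and 25.9 FPKM in Control and 27.9 and 28.3 after Pam3CSK4. It stood at 33.1, 30.1 and 30.9 FPKM after IFN-gamma and 29.1, 28.1 and 30.1 in the combined group. Every stimulated library except IFN-gamma replicate 1 lay within the Control range, so the order of the group means (Pam3CSK4, combined, Control, IFN-gamma) does not exceed their spread. Fitted log2 changes against Control were -0.10 ± 0.13, 0.17 ± 0.12 and 0.05 ± 0.12 (edgeR adjusted p = 0.572, 0.281 and 0.733). The combined group differed from IFN-gamma by -0.12 ± 0.12 and from Pam3CSK4 by 0.16 ± 0.14 (adjusted p = 0.493 and 0.569). The change after Pam3CSK4 was -0.23 when Control replicate 3 was left out (adjusted p = 0.0236), and it was the same without the 3 marked libraries (0.035). The predicted gene Gm37760 lies inside the Casp8 model on the same strand and held 2 to 19 counts per library, against 1635 to 2186 for Casp8.

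Ripk1 (ENSMUSG00000021408, chromosome 13, 34002363 to 34035170), the kinase that scaffolds TNF receptor signalling, stood at 7.04, 6.22 and 6.99 FPKM in Control and 8.52 and 8.16 after Pam3CSK4. It stood at 8.34, 7.99 and 5.76 FPKM after IFN-gamma and 6.96, 10.1 and 10.3 in the combined group. The combined group scattered most, with replicate 1 inside the Control range and the others above every other library. Only this group passed against Control, at 0.53 ± 0.17 (edgeR adjusted p = 0.027). That call was lost without Control replicate 2 or 3 (0.0726 and 0.0501), without combined replicate 2 or 3 (0.0978 and 0.0934) and without the 3 mural-marked libraries (0.41, 0.114). It was also lost with limma on log2(FPKM + 1), at 0.37 (limma adjusted p = 0.0762). After Pam3CSK4 and IFN-gamma alone the changes were 0.29 ± 0.19 and 0.22 ± 0.17 (edgeR adjusted p = 0.238 and 0.318). Against IFN-gamma the combined group was 0.31 ± 0.17 higher (adjusted p = 0.191), and 0.47 without combined replicate 1 (adjusted p = 0.0383). Against Pam3CSK4 it was 0.24 ± 0.19 higher (adjusted p = 0.531). Ripk1 overlaps the opposite-strand gene Serpinb6a by 432 bases (962 to 3357 counts, against 711 to 1673 for Ripk1) and the same-strand gene Gm17084 (9 to 82 counts). The strand setting of the counting is not given in the sources used here, so reads in the shared stretches cannot be assigned with certainty.

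Ripk3 (ENSMUSG00000022221, chromosome 14, 55784996 to 55788857), the kinase that activates MLKL, was called in no comparison with all libraries, and Control replicates differed widely. Control replicates 1 and 2 held 1.46 and 2.21 FPKM and Control replicate 3, the library with the highest mural and fibroblast level, held 10.8. Pam3CSK4 libraries held 1.57 and 2.65 FPKM, IFN-gamma libraries 7.84, 6.18 and 6.55, and combined libraries 2.86, 3.08 and 3.48. In each group with a mural-marked library, that library was the highest. IFN-gamma libraries lay above all combined and Pam3CSK4 libraries, and above the unmarked Control libraries. In IFN-gamma replicates 2 and 3 the mural list summed to 17.6 and 17.4 FPKM. How far other cells' RNA contributed to Ripk3 was not tested.

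Against Control with all libraries, the Ripk3 changes were -1.14 ± 0.68 after Pam3CSK4, 0.67 ± 0.58 after IFN-gamma and -0.46 ± 0.58 with both (edgeR adjusted p = 0.201, 0.381 and 0.54). Without the 3 mural-marked libraries they were 0.12 ± 0.29 (adjusted p = 0.756), 1.85 ± 0.28 (adjusted p = 0.000992) and 0.74 ± 0.28 (adjusted p = 0.0569). Leaving out Control replicate 3 alone gave 1.94 after IFN-gamma (adjusted p = 0.000389) and turned the combined change to 0.81 (adjusted p = 0.0256). Ripk3 was thus 3.62-fold higher after IFN-gamma in the unmarked libraries. The combined group was lower than IFN-gamma by a log2 of -1.13 ± 0.58 with all libraries (adjusted p = 0.167). That difference was -1.11 ± 0.26 without the 3 (adjusted p = 0.0103) and -1.13 without Control replicate 3 (0.00307), so the size was nearly the same and the error smaller. Against Pam3CSK4 the combined group was 0.68 ± 0.67 higher with all libraries and 0.62 ± 0.28 without the 3 (adjusted p = 0.62 and 0.174). In the combined group against IFN-gamma, 1 of 8 members, Casp4, was called with all libraries (34.2% of all genes called, 17.0% higher). Without the 3 libraries 5 were called, with Casp1, Casp4 and Mlkl higher and Ripk3 and Casp12 lower (40.1% of all genes called).

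Mlkl (ENSMUSG00000012519, chromosome 8, 111311797 to 111338177), the executioner of necroptosis, was close to undetected in unstimulated cells. Control replicates 1 and 2 held 7 and 1 counts (0.136 and 0.0184 FPKM) and Control replicate 3 held 105 (1.71 FPKM). Pam3CSK4 libraries held 0.909 and 0.995 FPKM, IFN-gamma libraries 5.76, 3.51 and 3.90, and combined libraries 6.09, 6.36 and 7.94. IFN-gamma and combined libraries all exceeded every library without IFN-gamma, and the combined libraries exceeded those with IFN-gamma alone. As with Ripk3, the mural-marked library was the highest of its group in all 3 groups that have one.

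With all libraries Mlkl was 7.87-fold higher after IFN-gamma (log2 2.98 ± 0.93, edgeR adjusted p = 0.0284) and 12.2-fold higher with both (3.60 ± 0.95, adjusted p = 0.0114). It was not called after Pam3CSK4 (0.66 ± 1.00, adjusted p = 0.62). The IFN-gamma call was lost on leaving out Control replicate 1 (0.0661), or replicate 1 or 3 of the IFN-gamma group (0.0611 and 0.0589). With only the groups compared in the fit, the IFN-gamma and combined changes had adjusted p of 0.117 and 0.0508, and DESeq2 gave none for Mlkl. Without Control replicate 3 the changes were 3.54 after Pam3CSK4 (adjusted p = 0.000472), 5.86 after IFN-gamma (1.76e-05) and 6.49 with both (5.66e-06). In the unmarked libraries the ratios of counts to Control, scaled to library size, were 12.5 (95% counting interval 6.15 to 29.8), 48.7 (24.5 to 114) and 82.3 (41.6 to 191), on 8 Control counts. The combined group exceeded Pam3CSK4 by 2.94 ± 1.08 (adjusted p = 0.139), which passed without Control replicate 2 or 3 (0.0406 and 0.000547). Against IFN-gamma it was 0.63 ± 0.84 higher (adjusted p = 0.607), and 0.73 ± 0.22 without the 3 marked libraries (adjusted p = 0.0301). In the combined group against Pam3CSK4, 2 of 8 members were called, Casp4 and Gsdmd, both higher (9.10% of all genes called, 6.06% higher). Without the 3 libraries Casp1 and Mlkl joined them (4 of 8, 19.4% of all genes called).

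Ratios of FPKM within a library set the partners of 1 route side by side, and were chosen after the levels were seen and given no test. Casp4 stood at 8.72, 9.27 and 15.8% of Casp1 in Control, at 17.4 and 17.2% after Pam3CSK4, at 15.9, 16.7 and 16.8% after IFN-gamma and at 26.4, 23.0 and 23.5% in the combined group. The single stimuli thus gave like ratios and the combined group the highest. Ripk3 stood at 20.5 to 23.7% of Casp8 after IFN-gamma, at 9.83 to 11.6% in the combined group and at 5.60 and 9.36% after Pam3CSK4. In Control it was 4.47 and 7.24%, and 41.9% in replicate 3. Mlkl stood at 0.836 to 15.8% of Ripk3 in Control, at 37.5 and 58.1% after Pam3CSK4 and at 56.8 to 73.5% after IFN-gamma. In the combined group Mlkl exceeded Ripk3, at 213, 206 and 228%. The Mlkl to Ripk3 ratio of every combined library, marked or not, lay above that of every other library.

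**Figure D3:**
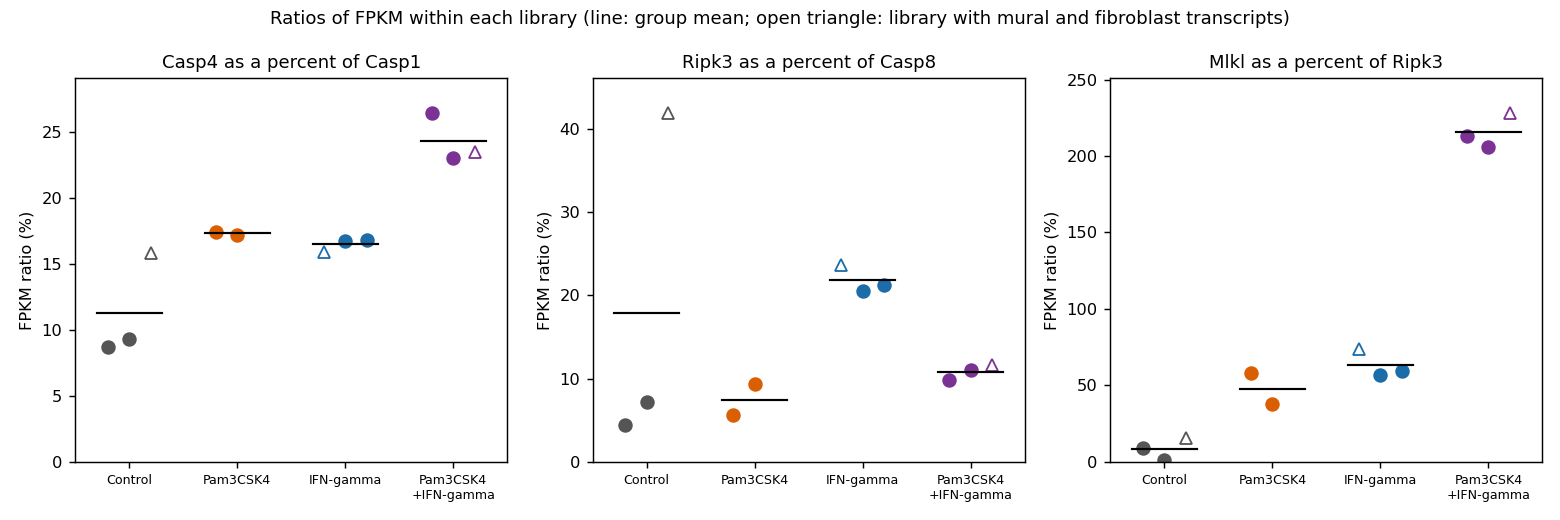
Percent ratio of FPKM within each library (y axis, from 0) for Casp4 to Casp1, Ripk3 to Casp8 and Mlkl to Ripk3, by group; lines are group means and open triangles the mural-marked libraries. The combined group is highest for Casp4 to Casp1 (23.0 to 26.4%) and Mlkl to Ripk3 (206 to 228%), and the IFN-gamma group lies above the combined group for Ripk3 to Casp8.

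The interaction asks whether the Pam3CSK4 effect differed with and without IFN-gamma. In the combined group IFN-gamma followed Pam3CSK4, so treatment order and time since the agonist may also differ from the Pam3CSK4 group. Neither the interaction nor the combined group against Pam3CSK4 can tell these apart from an effect of IFN-gamma. Casp4 was the only member called, 1 of 8 (16.0% of all tested genes called, 8.01% lower). Its single changes of 1.52 and 1.79 sum to 3.31 on the log2 scale, and the combined group reached 2.63, a difference of -0.68 ± 0.14 (edgeR adjusted p = 0.0136). It was -0.63 without the 3 mural-marked libraries (adjusted p = 0.0178) and -0.63 without Pam3CSK4 replicate 1, where it just failed (0.0507). Casp1 and Gsdmd also fell short of the sum, by fitted values of -0.51 ± 0.33 and -0.24 ± 0.17 that did not pass (adjusted p = 0.32 and 0.344).

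Mlkl and Ripk3 had interactions near 0 with all libraries, -0.04 ± 1.26 and 0.01 ± 0.84 (edgeR adjusted p = 0.988 and 0.995). Without the 3 marked libraries both were negative and called, at -2.81 ± 0.52 for Mlkl (adjusted p = 0.00602) and -1.24 ± 0.39 for Ripk3 (adjusted p = 0.049), making 3 of 8 with Casp4 (28.3% of all genes called). Removing Control replicate 3 alone gave -2.92 and -1.26 (adjusted p = 0.00725 and 0.0291). For Mlkl the single changes in the unmarked libraries, 3.54 and 5.64, sum to 9.18 against 6.37 reached with both. Each of these Mlkl changes rests on the same 8 Control counts, so the size of the shortfall depends on that low level. For Ripk3 the sum was 1.97 and the combined change 0.74. Casp8 and Ripk1 had interactions of -0.02 ± 0.18 and 0.02 ± 0.25 (adjusted p = 0.966 and 0.974).

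The 5 lists of partner genes place the members in their pathways. Calls below are read against the shares of all tested genes called in either direction. These were 41.4% after Pam3CSK4, 41.6% after IFN-gamma and 47.6% with both. Without the 3 marked libraries they were 53.8%, 47.3% and 53.4%. Among other caspases, all 5 tested genes were lower after Pam3CSK4, with a median log2 change of -0.57 (-0.64 without the 3 marked libraries). Among them Casp6 changed by -0.74 ± 0.14 and Casp2 by -0.57 ± 0.14 (edgeR adjusted p = 0.00264 and 0.0109). The Casp2 call was lost without Pam3CSK4 replicate 1 (0.109). After IFN-gamma 2 of 5 rose and 1 fell (median 0.25), against 2 and 0 without the 3 (median 0.13). Casp2 rose by 0.69 ± 0.13 (edgeR adjusted p = 0.00216), and Casp6 changed by -0.37 ± 0.12 (0.0354). The Casp6 call was lost on removing any of 7 libraries, namely Control 1 or 3, Pam3CSK4 1 or 2, IFN-gamma 2, or combined 1 or 2 (adjusted p = 0.0504 to 0.106), and without the 3 marked ones (0.056).

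Of 19 tested inflammasome and pyroptosis partners, 8 rose and 4 fell after Pam3CSK4 (median 0.38) and 9 rose and 4 fell after IFN-gamma (median 0.73). Without the 3 marked libraries 8 rose and 7 fell after Pam3CSK4 (median 0.17), and 9 rose and 5 fell after IFN-gamma (median 0.51). Genes of guanylate-binding proteins, which act on pathogen membranes and help caspase-11 activation, were among the largest changes in both. After Pam3CSK4 Gbp5 and Gbp2 rose by 3.44 ± 0.17 and 2.96 ± 0.53, and Mefv, which encodes the inflammasome sensor pyrin, by 3.04 ± 0.41 (edgeR adjusted p = 1.18e-06, 0.00192 and 0.00034). After IFN-gamma Gbp2, Gbp5 and Gbp3 rose by 9.88 ± 0.67, 9.44 ± 0.19 and 6.93 ± 0.15 (adjusted p = 5.67e-06, 3.78e-09 and 5.27e-09). Gbp2 was highest among Control libraries in the mural-marked replicate 3, at 4.22 FPKM, and without the 3 marked libraries its changes were 4.10 and 11.04.

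Death receptor and RIPK1-complex partners included 7 higher and 2 lower of 20 after Pam3CSK4 (median 0.09), 7 higher and 1 lower after IFN-gamma (median 0.24) and 11 higher and 0 lower with both (median 0.35). Without the 3 marked libraries the counts were 7 higher and 3 lower (median 0.08), 8 higher and 5 lower (median 0.22) and 10 higher and 0 lower (median 0.38). The death receptor gene Fas rose by 2.81 ± 0.25 after Pam3CSK4 and 1.70 ± 0.23 after IFN-gamma (edgeR adjusted p = 3.28e-05 and 0.000441). Birc3, a ubiquitin ligase that modifies RIPK1, rose by 2.03 ± 0.10 and 1.33 ± 0.09 (9.64e-07 and 4.62e-06). Cflar, the caspase-8 regulator cFLIP, rose after Pam3CSK4 by 1.74 ± 0.28 (adjusted p = 0.00101), from 3.10 ± 0.64 (SD, n = 3) to 10.5 ± 4.53 FPKM (SD, n = 2). Casp8 itself was not called there with all libraries, and was called lower without the 3 marked ones (-0.23, edgeR adjusted p = 0.035). The TNF receptor gene Tnfrsf1a rose after IFN-gamma by 1.11 ± 0.11 (adjusted p = 4.90e-05).

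Necroptosis sensors and regulators moved with Pam3CSK4, with 7 of 8 higher and 1 lower (median 0.84), and 3 of 8 higher and 0 lower after IFN-gamma (median 0.20). Without the 3 marked libraries they were 7 and 1 (median 0.73), and 4 and 0 (median 0.21). Zbp1, the nucleic acid sensor that binds RIPK3, rose by 3.09 ± 0.21 and 4.88 ± 0.21 (edgeR adjusted p = 6.60e-06 and 3.72e-07). The TLR adaptor gene Ticam1 (0.98 ± 0.13, adjusted p = 0.000323) and the ubiquitin ligase gene Peli1 (0.86 ± 0.19, 0.00511) rose after Pam3CSK4. After IFN-gamma Adar, an RNA-editing enzyme that limits ZBP1 activation, rose by 0.72 ± 0.12 (adjusted p = 0.00131). Peli1 rose there by 0.58 ± 0.17 (0.0215), which was lost without IFN-gamma replicate 1 or 2 (0.0583 and 0.0643) and was 0.36 without the 3 marked libraries (0.0258).

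Of 19 BCL-2 family and apoptosome genes, 7 rose and 4 fell after Pam3CSK4 (median 0.24) and 7 rose and 2 fell after IFN-gamma (median 0.23). Without the 3 marked libraries 8 rose and 4 fell (median 0.10), and 6 rose and 2 fell (median 0.33). The pro-apoptotic gene Bmf fell by 3.75 ± 0.26 on the log2 scale after Pam3CSK4 (edgeR adjusted p = 8.61e-06), and Bcl2l11, which encodes BIM, fell by 2.34 ± 0.17 after IFN-gamma (7.96e-06). The anti-apoptotic Bcl2a1a rose with each stimulus, by 2.00 ± 0.23 and 1.67 ± 0.22 (adjusted p = 0.000151 and 0.000291), and Bcl2a1d by 1.70 ± 0.20 after Pam3CSK4 (0.000144). These Bcl2a1 copies are near-identical, so reads may have been divided between them. Bak1, a pro-apoptotic pore former, rose by 1.61 ± 0.29 after IFN-gamma (adjusted p = 0.00197).

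**Figure D4:**
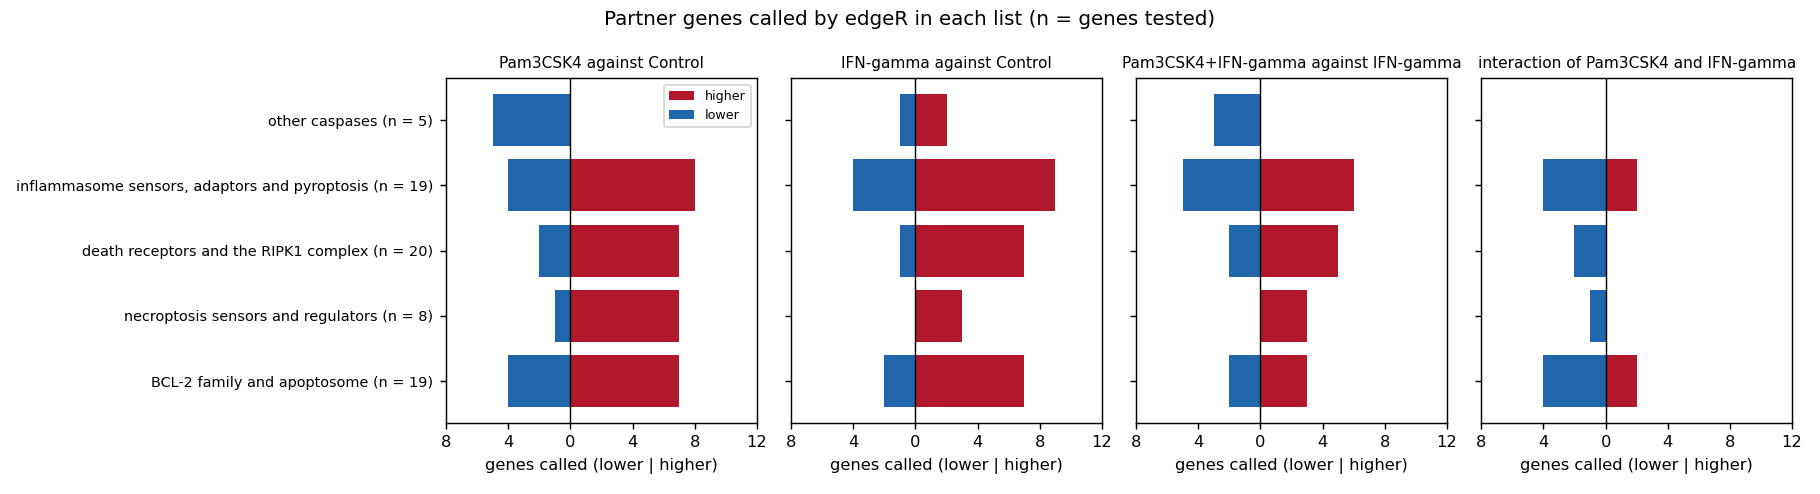
Number of genes called lower (left, blue) and higher (right, red) by edgeR in each partner list (rows, with the number tested) for 4 comparisons. All 5 other caspases are lower after Pam3CSK4, where 7 of 8 necroptosis sensors and regulators are higher.

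Leaving out predicted genes, the tested gene outside the 8 whose profile over the 11 libraries was most like each member's differed from member to member. It was Trim30a for Casp1 (Pearson r = 0.983), Prdx1 for Casp4 (0.997), Rnf34 for Gsdmd (0.995) and Mapk13 for Ripk3 (0.96). It was Rars for Mlkl (0.977), Tmem243 for Casp8 (0.955), Ppt2 for Ripk1 (0.851) and Gja4, a vascular connexin gene, for Casp12 (0.971). These are the highest correlations of log2 depth-scaled counts among the tested genes, over points that share their libraries and groups, and are given as a description.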

How the data were processed

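RNA of cultured microglia was sequenced in 11 libraries. Each library has a deposited count and a deposited FPKM value for every Ensembl gene. The tools named, per the submitters' processing notes, are Cufflinks 2.1.1, Cuffdiff and TopHat2 2.1.0, on mm10. For the counting tool, annotation and strand setting nothing is given in the sources used. Columns were matched to samples by the number in each description.

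Genes reaching 1 FPKM in 2 or more libraries (10938) had their counts fitted with edgeR 4.0.16 (quasi-likelihood test, TMM scaling, R 4.3.3). All 4 group means entered 1 fit without a replicate block. The two-sided p-values were adjusted by Benjamini and Hochberg's method over all tested genes, with a threshold of 0.05. The SE was obtained as |log2 change| over √F. The script was tested on simulated data. Alternatives used limma 3.58.1, DESeq2 1.42.0, other scaling, filters and sample sets. All 8 genes were tested in every comparison. Partner genes are the up to 3 largest called changes per list in Pam3CSK4 or IFN-gamma against Control and the interaction. Some of these are not reported here. Of the listed partners, Gm12250 was not analysed here and Gsdme was matched by ID. The members, lists and alternatives were chosen with earlier results of these data known. Promoter windows are RefSeq's on GRCm38.p6, searched with Python 3.11.15.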

Additional observations from a re-analysis of the deposited data

Results flagged for a closer look

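By edgeR's test of the interaction, the Pam3CSK4 effect differed with and without IFN-gamma for 1 of the 8 genes (16.0% of all tested genes called). The 9 partners named here were taken from those called in the interaction, up to 3 per list, so their number is no result. Casp4 had an interaction of -0.68 ± 0.14 on the log2 scale (adjusted p = 0.0136). Among pyroptosis partners, Il1b, the cytokine cut by caspase-1, had 5.36 ± 0.37 (adjusted p = 7.24e-05), with 26.3 ± 9.10 FPKM in Control (SD, n = 3), 59.9 ± 8.12 after Pam3CSK4 (SD, n = 2), 2.08 ± 0.47 after IFN-gamma (SD, n = 3) and 196 ± 31.3 with both (SD, n = 3). Gbp2 and Gbp5 had -4.22 ± 0.71 and -3.55 ± 0.21 (adjusted p = 0.00516 and 3.42e-05), and Zbp1 -2.79 ± 0.27 (0.000394). Birc3 had -1.11 ± 0.13 (0.000955). Sharpin, of the linear ubiquitin complex, had -0.61 ± 0.18 (0.0495), a call that leaving out any library except Control replicate 1 or 3 ended (adjusted p = 0.0667 to 0.193). Bcl2a1a and Bcl2a1d had -1.95 ± 0.31 and -1.56 ± 0.27 (0.00424 and 0.0054), and Bmf 1.64 ± 0.31 (0.0084).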

How the results depend on the processing

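The number of members called in IFN-gamma and in the combined group against Control, 4 and 5 of 8, stayed within 1.5 times of those values under every alternative run. Leaving out 1 library at a time gave 1 to 4 members in Pam3CSK4 against Control (2 with all), 3 to 6 in IFN-gamma, 4 to 5 in the combined group against Control, 1 to 3 against IFN-gamma (1 with all), 2 to 4 against Pam3CSK4 (2 with all) and 0 to 3 in the interaction (1 with all). Without the 3 mural-marked libraries there were 4 for Pam3CSK4 against Control, 5 and 4 for the combined group (over IFN-gamma, then over Pam3CSK4) and 3 for the interaction. With only the groups compared in the fit, the first 3 of these were 1, 4 and 4. Leaving out 1 library, the Ripk3 change in the combined group against Control ranged from -0.88 to 0.81 and its interaction from -1.26 to 0.45, with 0.81 and -1.26 without Control replicate 3; the interaction was -1.24 without the 3. The cause was not tested. Of 940 refitted member values, 890 kept their side of the threshold, 18 lost a call, 29 gained one and these 3 changed sign with a call in 1 of the fits. Other sign changes, among them Ripk3 at 0.74 in the combined group against Control without the 3, had no call in either fit and are counted among the 890. In deviations from group means, 6 of 15 same-numbered pairs correlated above 0.1 and 2 of 11 libraries correlated best with their own number. Mural-marked libraries with unlike numbers correlated strongly (r = 0.81 for Control replicate 3 and IFN-gamma replicate 1). The check therefore cannot show whether replicate numbers pair libraries. With the replicate number as a block, 1 member was called in Pam3CSK4 against Control, Casp4, as Casp1 had an adjusted p of 0.0522, and Ripk1 in the combined group against Control had 0.0508. Over all genes, calls in Pam3CSK4 against Control numbered 4532, and 2642 with only those groups fitted and 2873 without Pam3CSK4 replicate 2. In the combined group against Pam3CSK4 they numbered 995, and 405 to 2005 leaving out 1 library, 1536 with DESeq2, 2314 with only those groups and 2122 without the 3. In the interaction they numbered 1752, and 664 to 3232 leaving out 1 library, 1080 without the filter and 3100 without the 3. Depth limits Casp12, at 0 to 143 counts, and Mlkl in Control. With a filter of 5 FPKM in at least 2 libraries Casp12 was not tested.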

Other observations

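Casp2 fell by 0.57 on the log2 scale after Pam3CSK4 and rose by 0.69 after IFN-gamma, and stood at 1.37 ± 0.14 FPKM with both (SD, n = 3), against 2.1 ± 0.40 in Control (SD, n = 3). Bcl2l11 stood at 4.37 ± 0.81 FPKM in Control (SD, n = 3), 5.26 ± 0.06 after Pam3CSK4 (SD, n = 2), 0.813 ± 0.05 after IFN-gamma (SD, n = 3) and 2.77 ± 0.39 with both (SD, n = 3). These genes were chosen after their values were seen.

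Over the 11 libraries, log2 depth-scaled counts of Casp1 and Casp4 correlated at r = 0.93, of Casp1 and Gsdmd at 0.88, and of Casp12 and Ripk3 at 0.90, while Casp4 and Ripk3 had 0.08. The libraries share their groups and, for Casp12 and Ripk3, the mural-marked libraries, so these are descriptions.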
